A study of Mus musculus with 2 samples.

Results

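The matrix metalloproteases, their tissue inhibitors (TIMPs), the ADAMTS proteases and the lysyl oxidases were compared between 2 mouse liver tumours. The genes were chosen by symbol alone: 48 of the 19938 genes that the array measured with a probe set naming 1 gene carried an Mmp, Timp, Adamts, Lox or Loxl symbol followed by a number (Lox by none). They comprised 22 Mmp, 4 Timp, 18 Adamts and 4 Lox genes. The families are not complete: Loxl2, Mmp15 and Adamts2, for example, had no probe set naming them alone and were not measured here. Hepatocellular carcinoma was induced with the chemical carcinogen DEN (diethylnitrosamine) in both groups, HLF-deficient mice and wild-type (WT) mice. HLF (hepatic leukemia factor) is a transcription factor of the PAR bZIP family. Each genotype was represented by 1 array of total RNA from carcinoma tissue, so differences are between 2 samples and no test or SD between tumours exists. How HLF was removed and the strain, sex and age of the mice, and the number of mice behind a sample, are not given in the sources used here.

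Matrix metalloproteases are zinc enzymes, secreted or held at the cell surface, that cut collagens, elastin, laminin and many non-matrix proteins; most are made as inactive proenzymes. TIMPs bind the active site of these enzymes and so hold their activity down. ADAMTS proteases are secreted relatives that process procollagens, fibrillin-associated proteins, von Willebrand factor and the large proteoglycans, and lysyl oxidases are copper enzymes that start the cross-linking of collagen and elastin. In liver these genes are known mostly from stellate cells, endothelium, macrophages and bile duct cells, and from the turnover of scar matrix in fibrosis and carcinoma.

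Levels are RMA values (log2), and every difference is HLF-deficient minus WT, so that 1 equals 2-fold. A floor of 2.97 was set at the 95th percentile of 1243 probe sets of odour, pheromone and taste receptor genes, which liver is not known to use. Where 2 bright probe sets read the same gene, as for 717 genes, their differences scattered with an SD of 0.23 per probe set, a technical guide that covers neither mice nor tumours. The array medians were 3.61 in the HLF-deficient tumour and 3.73 in the WT tumour, so centring the arrays would add 0.12 to each difference; the 14601 genes that reached the floor in 1 or both tumours, referred to below as compared, had a median difference of 0.07. Hlf itself was at 3.79 in the HLF-deficient tumour and 5.13 in the WT tumour, a difference of -1.34; where its probes lie relative to the deleted part is not known here, so this is a limited check of the label. Hepatocyte markers were far above the floor in both tumours, with 7 of 7 between 10.79 and 12.41 in the HLF-deficient tumour and between 10.53 and 12.55 in the WT tumour. A probe set's level depends on its probes, so levels are set against each other between tumours and not between genes.

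Of the 48 genes, 38 reached the floor in the HLF-deficient tumour and 37 in the WT tumour; 36 did so in both, 39 in 1 or both and 9 in neither. Of the 39 compared, 5 were 2-fold or more above WT in the HLF-deficient tumour, namely Mmp12, Mmp13, Mmp27, Adamts4 and Timp3, whereas 1.5% of all 14601 genes were. None of the 39 was lower by 2-fold, where 0.363% of all genes were. Among the 36 genes that reached the floor in both tumours, 4 were higher by 2-fold, or 11.1%, against 1.44% of the 13747 such genes, and 0 were lower, against 0.269%; Mmp27 is the one left out, since it passed the floor only in the tumour where it was higher. At 1.5-fold, 7 of the 39 were higher and 1 was lower, with 6.37% and 3.12% of all genes. The median difference of the 39 was -0.05, below the 0.07 of all genes compared, and 17 of them had a positive difference, or 43.6%, against 58.2% of all genes. That split depended on scaling. With the arrays centred, 24 of 39 members were positive, or 61.5%, beside 71.3% of all genes, whose differences all gain the same 0.12. After quantile normalization 23 were positive, or 59.0%, beside 53.6% of all genes, and after loess 24, or 61.5%, beside 48.3%. Neither the sign of the members' median nor its place relative to all genes was therefore settled. A few members were thus well above the WT level while 31 of 39 lay within 1.5-fold.

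**Figure D1:**
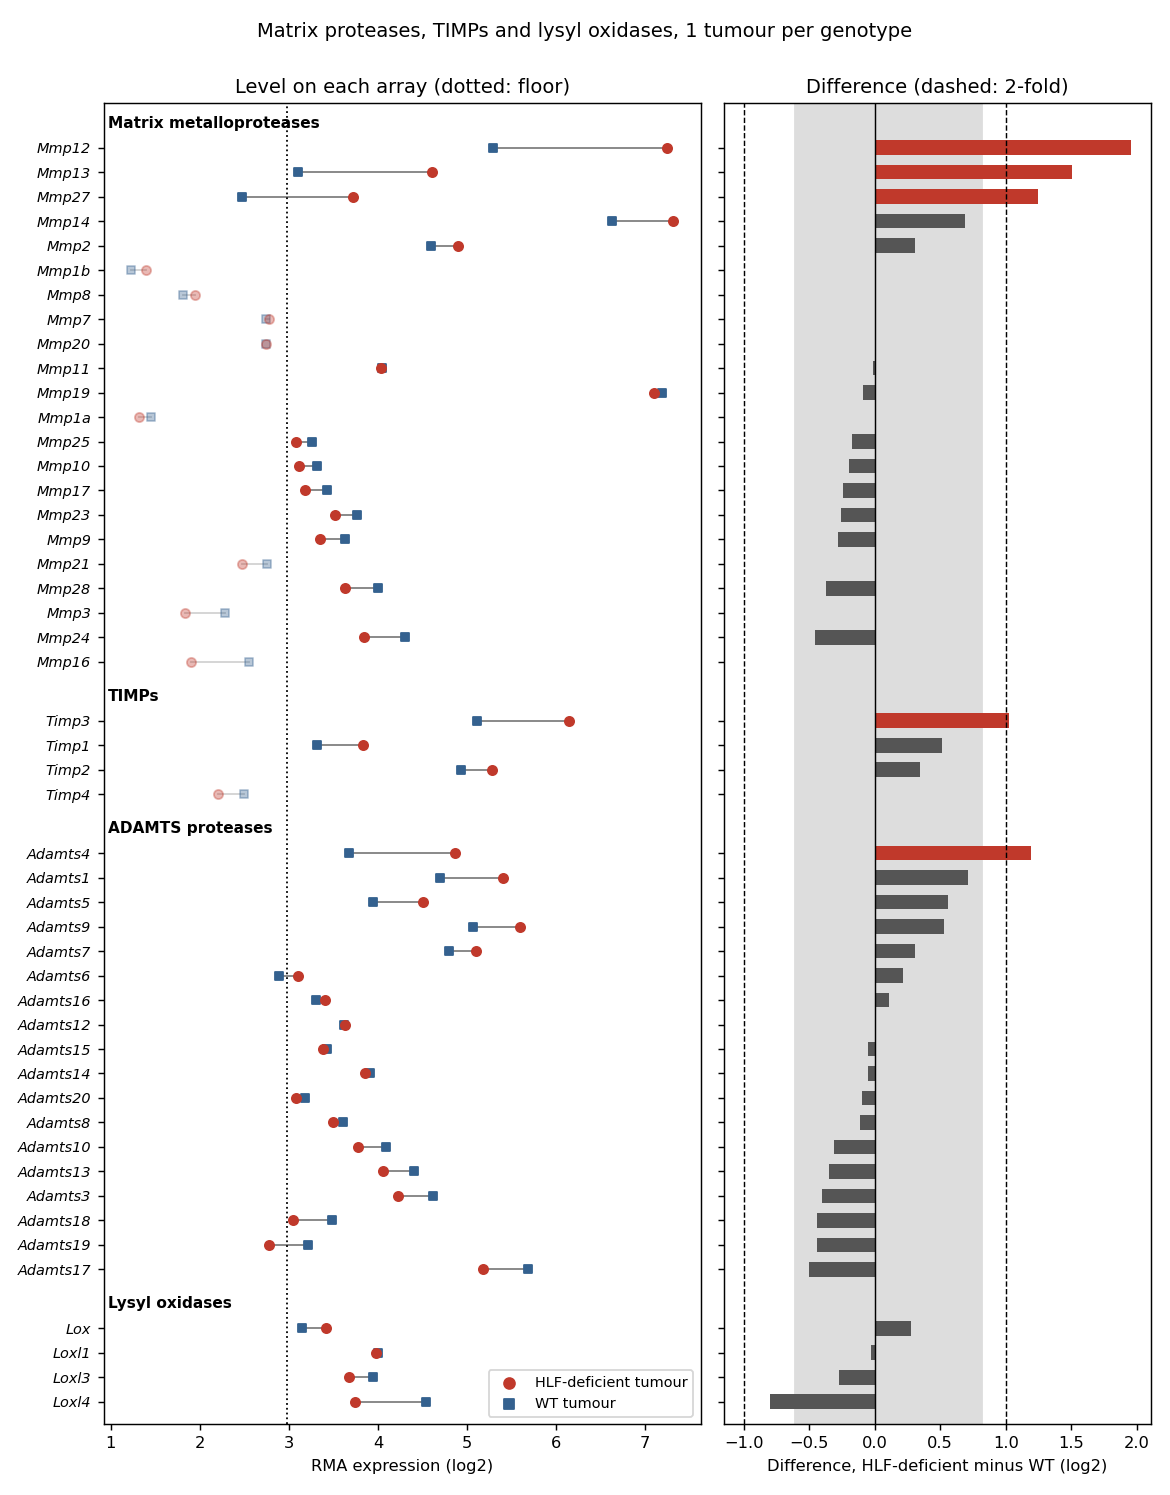
Left, RMA level (log2) of the 48 genes in the HLF-deficient tumour (red circles) and the WT tumour (blue squares), by family, with the floor of 2.97 dotted and genes below it on both arrays faded. Right, the difference (log2) of the 39 compared genes, with red bars beyond 2-fold and the grey band marking -0.61 to 0.82, the central 95% of all 14601 compared genes; Mmp12 stands farthest out at 1.96.

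Among the matrix metalloproteases, 14 of 22 were compared, and 3 of these were higher by 2-fold in the HLF-deficient tumour. Mmp12, the macrophage elastase, was at 7.25 in the HLF-deficient tumour and 5.29 in the WT tumour, which is 3.89-fold higher (1.96 on the log2 scale). By size of increase it was number 33 of 14601 genes. Mmp13, an interstitial collagenase, was at 4.61 in the HLF-deficient tumour and 3.10 in the WT tumour, or 2.83-fold higher, number 70 by increase. Its WT value was close above the floor, where RMA compresses differences. Mmp27, a little-studied secreted member, was at 3.72 in the HLF-deficient tumour and below the floor at 2.48 in the WT tumour, which bounds the difference at 1.68-fold or more. Mmp27 therefore passed 2-fold by its measured value, 1.25, and not by its bound.

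Mmp14, the membrane-anchored MT1-MMP that activates the proenzyme of MMP2, was at 7.32 in the HLF-deficient tumour and 6.63 in the WT tumour, a difference of 0.69 or 1.62-fold. Mmp14 differed by 0.52 after quantile normalization and by 0.47 after loess, both within 1.5-fold. Its substrate enzyme Mmp2, gelatinase A, had levels of 4.90 in the HLF-deficient and 4.60 in the WT tumour. Mmp19, a secreted metalloprotease, was at 7.10 and 7.19 in the HLF-deficient and the WT tumour, and its small difference of -0.09 was 0.03 when arrays were centred, -0.26 after quantile normalization and -0.30 after loess. Mmp9, gelatinase B, was at 3.35 in the HLF-deficient tumour and 3.63 in the WT tumour. Both gelatinases thus lay well within 1.5-fold, in opposite directions. The 9 compared genes other than Mmp12, Mmp13, Mmp27, Mmp14 and Mmp19 had differences between -0.46 and 0.31 and levels of 3.08 to 4.90 in the HLF-deficient tumour and 3.26 to 4.60 in the WT tumour. The lowest of these was Mmp24, a membrane-type protease, at 3.84 in the HLF-deficient tumour and 4.30 in the WT tumour. Mmp2, Mmp9 and Mmp24 were picked out with their values in view. The family median was -0.13, and lay between -0.02 and -0.01 under each of the 3 other scalings.

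The other 8 Mmp genes were below the floor on both arrays, with values of 1.31 to 2.77 in the HLF-deficient tumour and 1.22 to 2.75 in the WT tumour. They were the collagenase genes Mmp1a, Mmp1b and Mmp8, the stromelysin Mmp3, the matrilysin Mmp7, the enamel protease Mmp20, and Mmp16 and Mmp21. No difference is given for them.

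Markers of several cell types were set beside these values. In bulk tissue, fewer cells of a type and less RNA per cell cannot be told apart. Of all 14601 compared genes, 1.5% were higher and 0.363% lower by 2-fold, and 6.37% were higher and 3.12% lower by 1.5-fold. All 9 macrophage markers were above the floor, their summed linear levels amounted to 9.68 in the HLF-deficient tumour and 9.40 in the WT tumour on the log2 scale, and their median difference was 0.12. One of the 9, Cd68, a lysosomal protein of phagocytes, was higher by 2-fold, with 6.71 in the HLF-deficient tumour and 5.18 in the WT tumour, while Clec4f, a marker of resident Kupffer cells that was picked out after its value was seen, was at 6.43 in the HLF-deficient tumour and 6.80 in the WT tumour. Among 10 neutrophil markers, 8 were compared with a median of -0.39, and the summed level was 6.58 in the HLF-deficient tumour and 6.94 in the WT tumour; Ly6g was below the floor on both arrays, as was the neutrophil collagenase gene Mmp8, and the granule gene Ngp had 1.95, under the floor, in the HLF-deficient tumour and 3.26 in the WT tumour, which makes it lower by 1.22-fold or more. The stellate cell and fibroblast list had 11 of 12 markers compared, none past 2-fold as deposited, Dpt below the floor, and summed levels of 9.83 in the HLF-deficient tumour and 9.57 in the WT tumour. The median of the 11 was 0.24, and 9 were positive, where 58.2% of all genes were. Hand2 and Lrat were lower, with differences of -0.43 and -0.13. The largest increase was that of Rgs5, a pericyte gene at 6.53 in the HLF-deficient tumour and 5.59 in the WT tumour. Pdgfrb, a growth factor receptor, was next at 5.71 in the HLF-deficient tumour and 4.98 in the WT tumour. Of 6 cholangiocyte markers, 5 were compared with a median of -0.10 and none beyond 1.5-fold, and Mmp7, known from bile duct cells, was below the floor. The part of these cell types in the protease values was not tested.

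Mmp12, Mmp13 and Mmp27 belong to a run of 10 Mmp genes that follow each other on chromosome 9 in the gene order of RefSeq assembly GRCm38.p6. The start regions of the 3 genes are shown because these were the Mmp genes beyond 2-fold. Each sequence is the 250 bases before a RefSeq transcript start (GRCm38.p6), read 5′ to 3′ on the gene's strand, and capitals mark the AP-1 motif TGACTCA or TGAGTCA, which are each other's reverse complement. AP-1 is the Fos and Jun dimer, known as a regulator of several metalloprotease genes. Mmp12 has 2 listed starts, and the motif lies before the second.
Mmp12, first start, chr9:7344147-7344396, plus strand: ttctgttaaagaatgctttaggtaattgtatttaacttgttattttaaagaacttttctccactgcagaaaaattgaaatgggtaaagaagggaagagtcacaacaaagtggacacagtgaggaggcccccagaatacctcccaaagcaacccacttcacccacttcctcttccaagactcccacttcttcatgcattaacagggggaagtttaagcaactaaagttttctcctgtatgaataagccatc
Mmp12, second start, chr9:7347124-7347373, plus strand: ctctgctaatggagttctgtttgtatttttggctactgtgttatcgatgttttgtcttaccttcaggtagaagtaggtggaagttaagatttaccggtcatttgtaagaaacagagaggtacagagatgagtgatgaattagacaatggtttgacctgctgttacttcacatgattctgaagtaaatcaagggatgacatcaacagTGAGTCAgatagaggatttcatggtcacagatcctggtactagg
Mmp13, chr9:7272264-7272513, plus strand: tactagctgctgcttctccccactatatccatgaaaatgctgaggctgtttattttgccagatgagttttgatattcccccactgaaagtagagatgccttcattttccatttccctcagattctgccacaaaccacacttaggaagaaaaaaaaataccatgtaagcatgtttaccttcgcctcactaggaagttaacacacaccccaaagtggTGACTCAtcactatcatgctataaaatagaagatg
Mmp27, chr9:7571146-7571395, plus strand: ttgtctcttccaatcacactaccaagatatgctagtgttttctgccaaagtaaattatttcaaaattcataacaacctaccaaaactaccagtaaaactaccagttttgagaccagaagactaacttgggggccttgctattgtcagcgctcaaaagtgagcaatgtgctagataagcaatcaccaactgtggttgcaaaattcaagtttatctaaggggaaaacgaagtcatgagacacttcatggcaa

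The motif begins at base -35 from the start of Mmp13 and at base -44 from the second start of Mmp12, and was not found before Mmp27. It was also present before Mmp10, Mmp3, Mmp1a, Mmp1b and Mmp7, which are shown with 20 bases on each side of the motif since they were below the floor or, as Mmp10, within 1.5-fold.
Mmp10, chr9:7502259-7502305, plus strand: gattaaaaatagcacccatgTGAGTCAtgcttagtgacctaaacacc
Mmp3, chr9:7445756-7445802, plus strand: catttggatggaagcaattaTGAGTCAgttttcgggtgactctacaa
Mmp1a, chr9:7464048-7464094, plus strand: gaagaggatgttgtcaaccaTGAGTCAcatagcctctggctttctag
Mmp1b, chr9:7388093-7388139, minus strand: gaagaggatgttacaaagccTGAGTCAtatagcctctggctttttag
Mmp7, chr9:7692007-7692053, plus strand: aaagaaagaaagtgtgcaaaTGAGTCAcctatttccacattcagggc
In all, 7 of the 10 chromosome 9 genes had the motif in such a window, or 7 of their 12 windows, as did 4.46% of all 32851 windows in the table. None of the other 21 family genes with an entry had it, which says only that these letters are absent from those 250 bases. A PAR bZIP motif, searched as TTACGTAA or TTATGTAA on both strands, was in none of the 34 windows of the 31 members with an entry and in 0.931% of all windows. A motif match is a description of letters and shows no binding. Of the 7 genes with the motif, 2 were beyond 2-fold, 1 was within 1.5-fold and 4 were below the floor in both tumours.

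Along the chromosome, the 3 genes beyond 2-fold did not all lie side by side. Between Mmp12 and Mmp27 only Mmp10 was compared, so the values cannot show whether the run differed as a whole. Mmp13 and Mmp12 come first in gene order, followed by Mmp1b, Mmp3 and Mmp1a, all below the floor. Mmp10, a stromelysin, comes next and was at 3.12 in the HLF-deficient tumour and 3.32 in the WT tumour. Mmp8 follows below the floor, then Mmp27, and Mmp20 and Mmp7 close the run below the floor. Of 5 protein-coding neighbours on each side, a number chosen after the values were seen, 8 were compared and had a median difference of 0.27. All 8 had positive differences, from 0.12 to 1.78, where 58.2% of all genes did. Casp12, a caspase gene, was the 1 of the 8 beyond 2-fold, where 1.5% of all genes were higher by 2-fold. It was at 4.82 in the HLF-deficient tumour and 3.04 in the WT tumour, the latter close above the floor. Of the genes bordering the run, Dcun1d5, next to Mmp13, differed by 0.19, and Tmem123, next to Mmp7, by 0.55. Yap1, the Hippo pathway coactivator, was at 7.05 in the HLF-deficient tumour and 6.75 in the WT tumour.

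**Figure D2:**
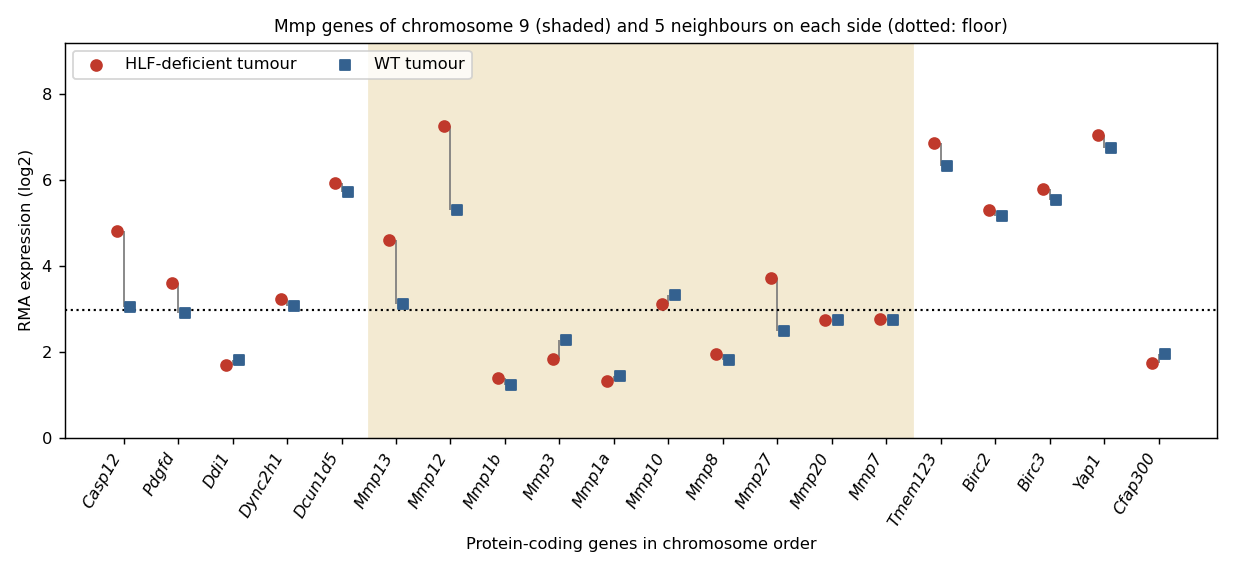
RMA level (log2) of the 10 Mmp genes of chromosome 9 (shaded) and 5 protein-coding neighbours on each side, in gene order, in the HLF-deficient tumour (red circles, left of each pair) and the WT tumour (blue squares). Mmp13 and Mmp12 at the start of the run and Mmp27 within it were higher in the HLF-deficient tumour; the other Mmp genes lay below the dotted floor of 2.97, except Mmp10 just above it.

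Of the 4 inhibitors, 3 were above the floor and all 3 were higher in the HLF-deficient tumour, where 58.2% of all compared genes had a positive difference. Timp3, which is bound to the matrix and also inhibits ADAM and ADAMTS proteases, was at 6.14 in the HLF-deficient tumour and 5.12 in the WT tumour. Its difference of 1.03, or 2.04-fold, ranked number 204 of 14601 and sat at the edge of the rule, being 0.88 after quantile normalization and 0.81 after loess. Timp1, a secreted inhibitor known to be induced in liver fibrosis, was at 3.83 in the HLF-deficient tumour and 3.31 in the WT tumour, a difference of 0.52. Timp2, which also takes part in the activation of MMP2 by MT1-MMP, was at 5.28 in the HLF-deficient tumour and 4.93 in the WT tumour, a difference of 0.35. Timp4 was below the floor in both. The 3 positive signs held under all 3 other scalings (centring, quantile, loess), where 71.3%, 53.6% and 48.3% of all genes were positive. The median of the 3 inhibitors was not under 0.52 in any of them.

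Timp1, Timp3 and Timp4 lie inside the synapsin genes Syn1, Syn3 and Syn2 in the RefSeq table, so the host genes were read as well. Syn3, the host of Timp3, was at 3.33 in the HLF-deficient tumour and 3.36 in the WT tumour. Syn1, the host of Timp1, was at 3.34 in the HLF-deficient tumour and 3.43 in the WT tumour. Syn3 thus differed by -0.03 and Syn1 by -0.09, beside 1.03 for Timp3 and 0.52 for Timp1. Both hosts lay close above the floor, where RMA compresses differences, and a difference shared by host and inhibitor was not tested. Of 9 endothelial markers, all above the floor, 6 had positive differences, where 58.2% of all genes did; the median was 0.51 and the summed level 9.81 in the HLF-deficient tumour and 9.46 in the WT tumour. Lyve1, a hyaluronan receptor, was at 6.37 in the HLF-deficient tumour and 5.16 in the WT tumour. It was the 1 marker past 2-fold as deposited, where 1.5% of all genes were higher by 2-fold, and its difference was 0.99 after loess. Emcn, a surface sialomucin, was at 6.20 in the HLF-deficient tumour and 5.22 in the WT tumour. Clec4g, a lectin of sinusoidal endothelium, was lower, at 7.05 in the HLF-deficient tumour and 7.82 in the WT tumour, so the markers did not share 1 direction. The part of endothelium in the Timp3 value was not tested.

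All 18 Adamts genes were compared, and 16 of them reached the floor in both tumours. Adamts4, an aggrecanase that cuts the proteoglycans aggrecan and versican, was the 1 gene beyond 2-fold, at 4.86 in the HLF-deficient tumour and 3.67 in the WT tumour. Its difference of 1.19, or 2.28-fold, ranked number 131 of 14601. Adamts1, another versican-cleaving protease, was at 5.41 in the HLF-deficient tumour and 4.69 in the WT tumour, a difference of 0.72. This was 0.64 after quantile normalization and 0.57, within 1.5-fold, after loess. The closely related Adamts5 was at 4.50 in the HLF-deficient tumour and 3.94 in the WT tumour, a difference of 0.56, and Adamts9, also of the proteoglycan-cleaving group, at 5.60 in the HLF-deficient tumour and 5.07 in the WT tumour, a difference of 0.53. Other members of that group lay near 0, with differences of -0.05 for Adamts15, -0.11 for Adamts8 and -0.10 for Adamts20, each of which turned positive under all 3 other scalings. Adamts5 and these 3 were named after their values were seen.

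At the other end, Adamts17, linked to fibrillin microfibrils, was at 5.18 in the HLF-deficient tumour and 5.68 in the WT tumour, a difference of -0.50. Adamts13, the protease of von Willebrand factor that hepatic stellate cells make, was at 4.06 in the HLF-deficient tumour and 4.41 in the WT tumour. The procollagen protease Adamts3 differed by -0.40, while the -0.05 of the related Adamts14 turned positive under all 3 other scalings. Adamts13, Adamts3 and Adamts14 were named for their roles after their values were seen. The 14 genes of the family other than Adamts4, Adamts1, Adamts9 and Adamts17 had differences between -0.44 and 0.56, with levels of 2.77 to 5.10 in the HLF-deficient tumour and 2.88 to 4.79 in the WT tumour. The family median of -0.05 had no settled sign: centring made it 0.07, and quantile and loess normalization 0.09.

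Adamts9, Adamts3 and Adamts17 were each read by several probe sets, which share the sample and so are no replicates of the tumour. All 6 probe sets of Adamts9 gave a positive difference, from 0.11 to 0.93, and their mean was 0.56. Of 8 probe sets of Adamts3 at or above the floor, out of 16, 7 gave a negative difference and the range was -0.50 to 0.25. All 4 probe sets of Adamts17 at or above the floor, out of 5, were negative, from -0.50 to -0.09. The direction was thus shared by all 6 Adamts9 probe sets and all 4 of Adamts17, whereas the size of the difference varied between probe sets of each gene.

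**Figure D3:**
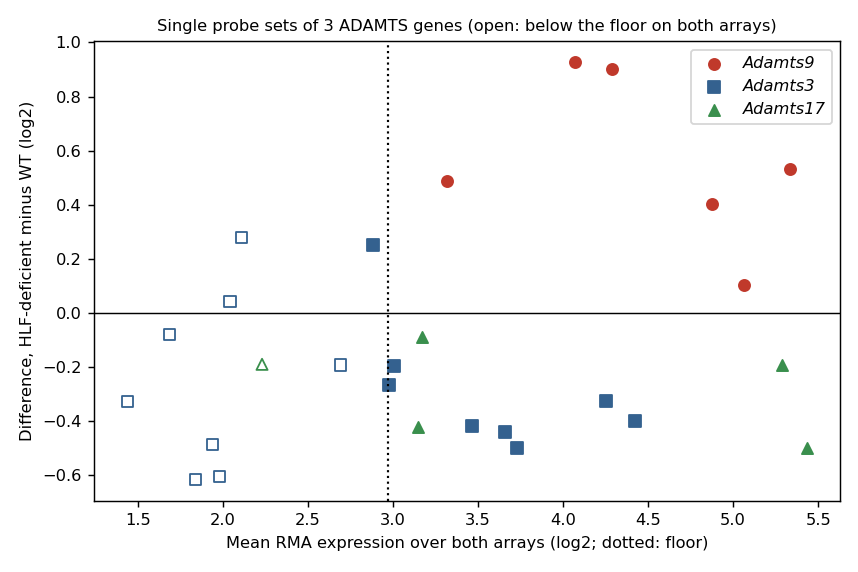
Difference (log2, HLF-deficient minus WT) of each probe set of Adamts9 (red circles), Adamts3 (blue squares) and Adamts17 (green triangles) against its mean RMA level over both arrays, with the floor of 2.97 dotted and open symbols for probe sets below it on both arrays. The 6 Adamts9 probe sets all lie above 0 and the 4 filled Adamts17 ones all below it.

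Among the 4 lysyl oxidases measured, which leave out Loxl2, none was higher by 1.5-fold, and their median was -0.15. Lox, the founding enzyme, was at 3.42 in the HLF-deficient tumour and 3.14 in the WT tumour, a difference of 0.28. Loxl1, known for elastic fibre upkeep, was at 3.98 in the HLF-deficient tumour and 4.01 in the WT tumour, and its difference of -0.03 turned positive under centring (0.09), quantile normalization (0.07) and loess (0.03). Loxl3 was at 3.67 in the HLF-deficient tumour and 3.94 in the WT tumour, a difference of -0.27. Loxl4 was at 3.74 in the HLF-deficient tumour and 4.54 in the WT tumour. With a difference of -0.80, or 1.74-fold, it was the 1 member of all families lower by at least 1.5-fold, and ranked number 124 by decrease. A second Loxl4 probe set was below the floor in both tumours.

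Genes that act with these families were read from lists. Of all 14601 compared genes, 1.5% were higher and 0.363% lower by 2-fold, and 6.37% were higher and 3.12% lower by 1.5-fold. Beside those shares, a count of 0 or 1 in lists this short says little. In the plasminogen system, 5 of 8 genes were compared and 1 was higher by 2-fold: Plau, the urokinase that turns plasminogen into plasmin, was at 4.16 in the HLF-deficient tumour and below the floor at 2.84 in the WT tumour, at least 2.28-fold higher. The median of the 5 was 0.40. Of 13 compared regulators and activators of the proteases, 1 was higher by 2-fold, the membrane serine protease gene St14, at 5.98 in the HLF-deficient tumour and 3.65 in the WT tumour. Lcn2, a lipocalin that binds MMP9, was at 11.54 in the HLF-deficient tumour and 10.79 in the WT tumour, and Spock1, a matrix proteoglycan, at 3.37 in the HLF-deficient tumour and 4.21 in the WT tumour. The median of the 13 was 0.07 as deposited, -0.02 after quantile normalization and -0.06 after loess, so that list had no settled sign. Of 11 compared metalloproteases of other families, 0 were beyond 2-fold, with the shedding enzyme Adam10 at 7.21 in the HLF-deficient tumour and 6.44 in the WT tumour and the meprin gene Mep1b at 4.58 in the HLF-deficient tumour and 3.91 in the WT tumour. The list's median was 0.18, or 0.46 with the floor at the 99th percentile.

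Among the substrates, 1 of 7 compared ADAMTS targets was higher by 2-fold, Thbs1, a matricellular glycoprotein, at 5.39 in the HLF-deficient tumour and 4.28 in the WT tumour. Tfpi, an inhibitor of coagulation, was at 5.91 in the HLF-deficient tumour and 5.10 in the WT tumour. The median of the 7 was 0.30. Under the alternatives the list's median lay between 0.15 and 0.77, but not always over the same genes. Centring brought in Vcan, the floor at the 99th percentile left fewer genes, and quantile normalization can also change which genes are compared. Versican and aggrecan (Vcan, Acan), the classic targets of Adamts4, were below the floor of 2.97 in both tumours. Vcan missed it narrowly, at 2.93 in the HLF-deficient tumour and 2.25 in the WT tumour. Acan was at 2.31 in the HLF-deficient tumour and 2.70 in the WT tumour. With the floor at the 90th percentile, 2.58, Vcan passed in the HLF-deficient tumour and Acan in the WT tumour. Their place below the floor thus depended on the setting. Collagens and other matrix genes that lysyl oxidases cross-link or that join such fibres had a median of 0.37 over 14 compared genes. One of them was beyond 2-fold, Sparc, a collagen-binding glycoprotein, at 10.19 in the HLF-deficient tumour and 8.92 in the WT tumour, and Postn, periostin, was next at 5.68 in the HLF-deficient tumour and 4.81 in the WT tumour. The 14 matrix genes and the 4 measured lysyl oxidases thus had medians of opposite sign, 0.37 and -0.15. The second was -0.03 with the arrays centred. The 8 compared ADAMTS-like genes and procollagen enhancers had none beyond 1.5-fold and a median of -0.12, or 0.01 with the arrays centred. Of 5 compared cathepsins, lysosomal proteases, 0 were beyond 2-fold, and Ctss, common in phagocytes, was at 7.42 in the HLF-deficient tumour and 6.75 in the WT tumour, with Ctsb at 9.59 in the HLF-deficient tumour and 8.94 in the WT tumour. The median of the 5 was 0.46.

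**Figure D4:**
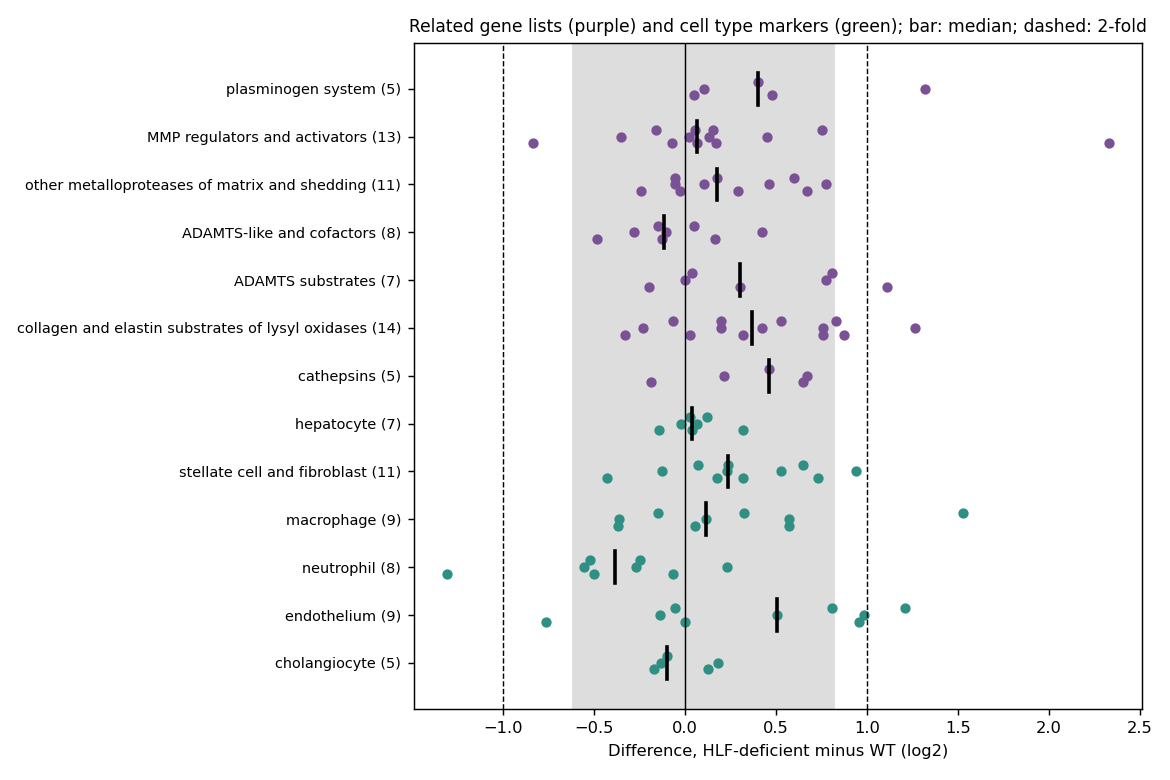
Difference (log2, HLF-deficient minus WT) of each compared gene in 7 lists related to the matrix enzymes (purple) and 6 lists of cell type markers (green), with the number compared in brackets, the list median as a bar and the grey band from -0.61 to 0.82 as for the members. Single genes, such as St14, Plau, Sparc and Thbs1, lie beyond the dashed 2-fold lines, and the list medians lie between -0.39 and 0.51.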

How the data were processed

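Carcinoma tissue of 1 HLF-deficient and 1 WT sample was measured on 1 whole-transcript array each. The authors deposited log2 values made with RMA in Affymetrix Expression Console, per the submitters' processing notes; the log2 scale was read from the values, which run from 0.25 to 12.7. RMA scales arrays jointly, and the set of arrays it was run on is not stated in these sources. Of 35556 probe sets, 21789 named 1 gene in the platform annotation, 1621 several and 12146 none; only the first were used. The 48 members had 73 probe sets, and 1 further probe set naming a family gene together with another gene was left out. All 48 symbols were found in RefSeq (GRCm38.p6), which also gave gene order and start regions; 31 members had a start region. The probe set with the highest mean stood for a gene. With 1 array per genotype no test was made: genes were described by a 2-fold rule, and precision is limited by the number of arrays.

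Members named with both levels were those beyond 1.5-fold, the 3 highest mean levels of Mmp and Adamts, and every compared Timp and Lox gene; from each list of related genes, up to 2 per direction beyond 1.5-fold. Cell type markers and other named genes were chosen with their values in view. Members were taken by symbol alone, but the symbol rule and the lists were set with earlier results of these data known. Alternatives were centring, quantile normalization, loess (span 0.4), the mean of probe sets, floors at the 90th and 99th percentile, values set to the floor, and rules of 1.5-fold and 4-fold. The 2-fold rule was tried on simulated differences with normal noise of a set size. These held no variation between tumours and no floor effect, so they do not show how the rule performs on these data. Python 3.11.15 with pandas 2.3.3 and numpy 2.4.6 was used.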

Additional observations from a re-analysis of the deposited data

How the results depend on the processing

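The count of members higher by 2-fold was 5 as deposited, with the arrays centred, with the mean of probe sets and with the floor at the 90th percentile. It was 4 without Timp3 after quantile or loess normalization, and 4 without Mmp27 with the floor at the 99th percentile or with values set to the floor. On the values as deposited it was 7 under a 1.5-fold rule and 0 under a 4-fold rule. Of those 7, Mmp14 fell within 1.5-fold after quantile normalization and loess, and Adamts1 after loess. The count lower by 2-fold was 0 under each setting but the 1.5-fold rule, where it was 1 (Loxl4). With the floor at the 99th percentile 24 members were compared in place of 39, and the Mmp median was 0.15 in place of -0.13, since fewer dim genes entered. The median of all members, -0.05, ranged from -0.05 to 0.15. Centring gave 0.07 (all genes compared, 0.20), quantile normalization 0.07 (all genes, 0.02) and loess 0.04 (all genes, -0.01); centring moves all genes alike. Of 110 values of named members under the alternatives, 108 moved by less than the probe-set SD of 0.23, but most could not move further. Another floor percentile leaves differences unchanged, and centring adds the same amount, below that SD, to each. The mean of probe sets alters only genes with several, and values set to the floor only genes partly below it. Under quantile normalization 16 of 16 moved by less than the SD, and under loess 15 of 16. Mmp12 was 1.72 after loess and Mmp27 0.75 with values set to the floor. Among these named members, signs turned for Loxl1 and Mmp19, as given above; over all 39, signs turned for 7 when centred, 6 under quantile and 7 under loess normalization. The lists were examined under alternatives chosen after seeing the data. The median of ADAMTS targets was 0.61 when centred, 0.42 under quantile and 0.15 under loess normalization, against 0.30 as deposited. With the higher floor it was 0.77, and that of the other metalloproteases was 0.46, against 0.18. The genes compared changed with the higher floor, and for the ADAMTS targets also with centring. Quantile normalization can change them too, so these are not medians of fixed sets. No paired analysis was possible because each genotype has 1 array. Levels near the floor of 2.97 limit what can be said of Mmp13, Mmp27 and Plau.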
